A study of Caenorhabditis elegans with 15 samples.

Results

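Transcript levels of whole L4 larvae of *Caenorhabditis elegans* were compared between animals labelled u218 KO and animals labelled mec-8 (e398) KO, here called u218 and e398. The comparison rests on 6 of the 15 polyA RNA-seq libraries of the study, 3 per genotype, with no wild type between them. All animals carry the strain label N2, no age beyond the L4 stage is given, and the u218 label names no gene, although u218 is also the name of a known mec-8 allele. For each of 46926 genes the table holds 1 averaged normalized count per genotype, and 17255 genes with at least 20 in either average were considered. A ratio here is log2((u218 + 1)/(e398 + 1)) of the averages.

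MEC-8, which binds RNA through its RNA recognition motifs, controls alternative splicing in neurons, muscle and hypodermis. Loss of its function is known for defects in touch sensation, in attachment of muscle to the hypodermis through perlecan, and in sensory neurons. Splice forms of a gene are summed in the table, so the values below are levels of whole genes. Both groups are whole animals, in which fewer cells of a type and less RNA per cell cannot be told apart.

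The libraries set limits that come before any result. Reads per library were recovered from the low averages, which are sums of whole reads with a fixed weight per library, and libraries were numbered by falling size factor. The size factors, which scale with sequencing depth, were 0.685, 0.609 and 0.476 in e398 and 1.99, 1.79 and 0.831 in u218. The 6 wild-type libraries of the study fell apart in the same way, 3 with size factors from 1.59 to 1.82 and 3 from 0.471 to 0.531, and the 3 libraries of the other mutant, u74, lay between 1.46 and 1.95. Genotype and library size therefore cannot be told apart for most of what follows. For this reason the u74 average is given beside many values, and results are set beside the difference between the large and the small wild-type libraries. In addition, e398 library 2 stood 4-fold or more away from each of the other e398 libraries for 16.3% of 6902 genes, and u218 library 3 did so within its group for 22.2%. No other library passed 5.77%. Both also leaned toward the other genotype. With u218 libraries 1 and 2, e398 library 2 had Pearson r of 0.44 and 0.45, and e398 libraries 1 and 3 each had 0.23 and 0.24. With e398 libraries 1 and 3, u218 library 3 had 0.35 and 0.38, and u218 library 1 had 0.23 with each. Between e398 library 2 and u218 library 3 it was 0.34. Leaving both out, chosen after seeing the data, draws the groups apart, so results without them are not independent support.

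Of the 17255 genes, 4640 (26.9%) were at least 2-fold higher in u218 and 7022 (40.7%) at least 2-fold lower, with a median ratio of -0.24. Ratios of 4-fold or more were found for 2095 higher and 5026 lower genes, and of 16-fold or more for 307 and 1695. The balance between directions depended on scaling. Among genes past 2-fold, 39.8% were higher as deposited, 45.4% after recentring on the median ratio and 52.6% with a TMM factor, which moved the median to 0.32. Averages have no replicate error and are called higher or lower, whereas rose and fell are used where limma on the recovered libraries passed. That test covered 6902 genes of low to moderate level, of which 705 rose (10.2%) and 2208 fell (32.0%) at an adjusted p under 0.05. All 3 u218 libraries lay above all 3 e398 libraries in 1076 of them (15.6%) and below in 2651 (38.4%). Without both libraries that stand apart 1261 rose and 2793 fell, and 667 of the 705 and 2081 of the 2208 were among them.

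**Figure D1:**
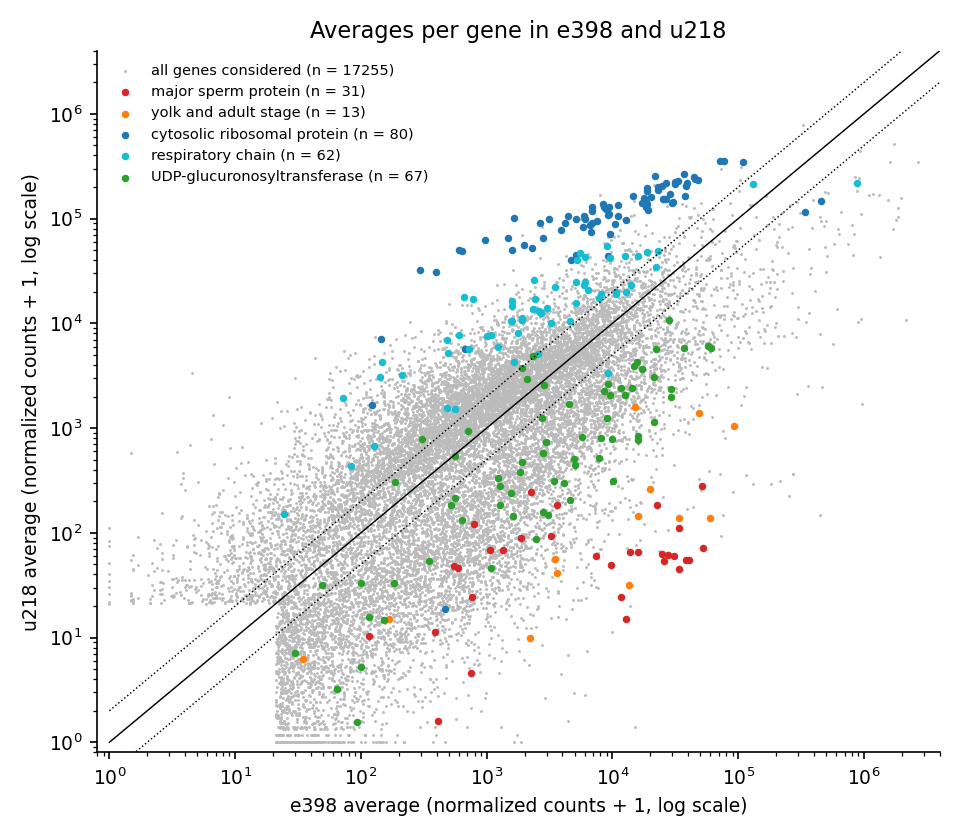
Average normalized counts plus 1 per gene in e398 (x axis) and u218 (y axis), both on log scales, with 1 grey point per gene considered and 5 gene lists in colour. The solid line marks equal averages and the dotted lines 2-fold. All 31 major sperm protein genes and all 13 yolk and adult genes lie below the lower dotted line, and 77 of 80 cytosolic ribosomal protein genes lie above the upper one.

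The difference between the large and the small wild-type libraries could be measured for 1131 of the tested genes, those with a wild-type average below 8. Of these, 80 (7.07%) rose and 324 (28.6%) fell in u218. Among the 80 genes that rose, 65 were also higher in the 3 large than in the 3 small wild-type libraries, and among the 324 that fell, 294 were also lower there. The shares over all 1131 genes were 30.7% higher and 68.8% lower. The genes that fell had a median log2 difference of -3.33 between u218 and e398 and of -2.29 between the wild-type libraries. Those that rose had medians of 3.11 and 1.43. The wild-type libraries share no sample with the comparison.

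With the wild-type libraries added and large or small size factor as a term, u218 library 3 left out because its size factor lies in neither range, limma called 0 of the 1131 genes in either direction. At an unadjusted p under 0.05, 62 were higher and 75 lower. With log2 size factor as the term and no library left out, 1 rose and 4 fell by limma. The median log2 difference of the 324 genes became -1.03 in the first of these fits and -2.08 in the second, and that of the 80 genes 1.74 and 2.36. The median standard error was 0.86 in the fit of 6 libraries and 1.30 and 1.15 in the fits with a term. With the wild-type libraries added and no term it was 1.13, and 81 rose and 307 fell by limma. With u218 library 3 also left out and no term it was 1.26, and 54 rose and 142 fell by limma. The 1131 genes are the low end of the table. Abundant genes could not be split in wild type.

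**Figure D2:**
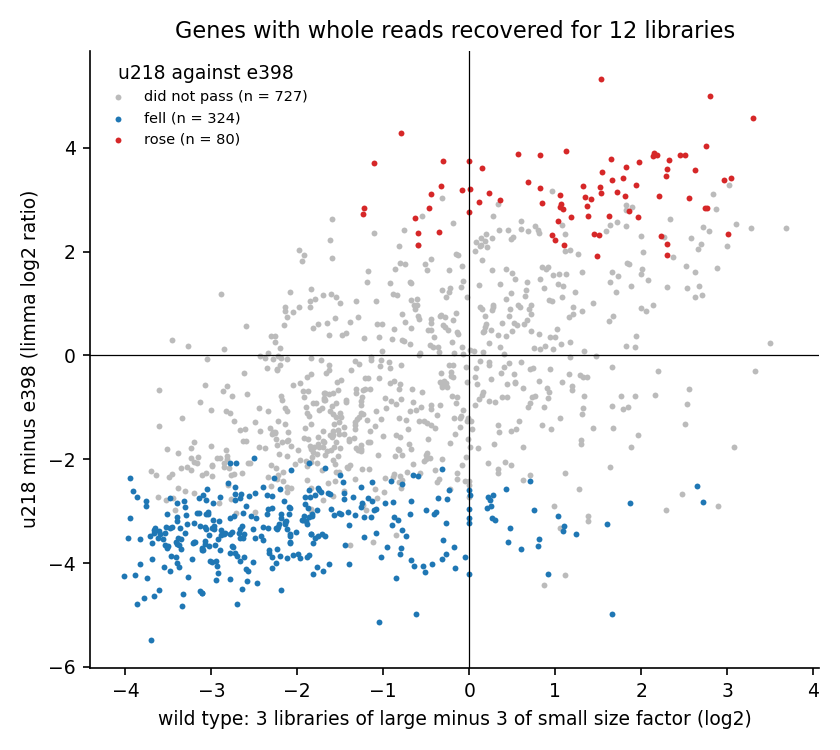
Log2 difference between u218 and e398 (y axis, limma) against the log2 difference between the 3 wild-type libraries of large and the 3 of small size factor (x axis), 1 point per gene for 1131 genes. Red points rose and blue points fell by limma, and 65 of 80 red points lie right of 0 while 294 of 324 blue points lie left of 0.

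mec-8 itself (WBGene00003172), on chromosome I between 9441010 and 9444227 on the minus strand in the WBcel235 annotation, had a higher average in u218. It averaged 1069.6 normalized counts in e398 and 3619.8 in u218, a ratio of 1.76, with 1956 in wild type and 2239 in u74. Its span overlaps C17E4.10, and the reads of its libraries lay above the range that could be recovered, so this ratio was not tested. Neither column was near 0. The nature of the lesions is not given in the labels, and a transcript level need not show a lesion.

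The 4 described splicing targets of MEC-8 had lower totals in u218. The perlecan gene unc-52, a basement membrane component needed to anchor body wall muscle, averaged 145342 in e398 and 62714 in u218 (-1.21). mec-2, a stomatin-like subunit of the touch channel complex, averaged 3036 and 1123 (-1.43). The fibrillin-related gene fbn-1 had 23972 and 13768 (-0.80) and the kinase gene sad-1 had 2157 and 1429 (-0.59). With the TMM factor these ratios were -0.65, -0.87, -0.23 and -0.03, so 0 of 4 reached 2-fold there. The u74 averages of the 4 genes, 57984, 605.5, 2373 and 753, were also below those of e398.

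Sperm transcripts had the lowest median among the 55 gene lists. Major sperm proteins, the cytoskeletal and signalling proteins of nematode sperm, were lower in u218 for 31 of 31 genes considered, with a median ratio of -7.53 and a range from -9.73 to -2.69. msp-59 averaged 52606 in e398 and 70.1 in u218, and msp-51 40459.7 and 53.4. msp-65 averaged 12883 in e398. Its u218 libraries held 12.1, 3.90 and 26.5 normalized counts, all far below that average. Near-identical msp genes share reads, so the genes are not independent. The 62 other sperm genes had a median of -3.75, 59 lower and 0 higher, including the sperm-specific family members ssq-2 (20332 and 337) and ssp-19 (1309.6 and 0.401). spe-39, a vesicle-trafficking gene also used outside sperm, had 1744 and 1801.

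The sperm difference was also found against u74, a comparison that shares the u218 libraries. There the median ratios of u218 to u74 were -6.35 for major sperm proteins, with 31 of 31 lower, and -4.09 for other sperm genes, with 59 of 62 lower and 1 higher. The background in that comparison was 18.5% lower and 19.4% higher. u74 against e398 had medians of -1.14 and -0.08. In 15 other sperm genes that could be tested, the median level was 200, 27.9 and 206 in e398 libraries 1 to 3 and 1.01, 3.34 and 25.3 in u218 libraries 1 to 3, so e398 library 2 and u218 library 3 came close to each other. By limma 8 of these 15 fell and 0 rose, against 32.0% and 10.2% of all genes tested, and 14 fell without those 2 libraries.

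Yolk and adult-stage genes were lower in the same way. The list holds vitellogenins, the yolk lipoproteins made in the adult hermaphrodite intestine, and genes of the uterus and adult body. All 13 considered were lower in u218 (median -6.46), with vit-3 at 59396 in e398 and 138.9 in u218, vit-2 at 92146 and 1046, and vit-6 at 48624 and 1396. The vitellogenin genes vit-3 and vit-4 are near copies and share reads. Against u74, where vit-2 averaged 405211, all 13 were lower as well (median -8.29). ule-5, a uterine secreted protein gene, was low in both groups. It had 30.7, 0 and 69.4 normalized counts in e398 and 4.03, 3.34 and 8.43 in u218, so the groups overlapped, and it did not pass limma (adjusted p = 0.55). The overlap rests on e398 library 2 at 0. Without the libraries that stand apart, a choice that draws the groups apart, ule-5 fell by limma (adjusted p = 0.00746).

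Oocyte and germline lists did not follow the sperm lists. Over all genes considered 26.9% were higher and 40.7% lower. Both shares were smaller in the oocyte and the germline list, while the cell cycle list had more higher and fewer lower genes. Of 30 oocyte and eggshell genes 5 were higher and 8 lower, with a median of -0.13 that became 0.10 after recentring and 0.43 with the TMM factor. The outermost members went in both directions. The eggshell permeability-barrier gene perm-2 averaged 2489 in e398 and 17.8 in u218, and the yolk receptor gene rme-2 10765 and 1199.8, while lin-41, a regulator of developmental timing and oocytes, averaged 751 and 6984. In u74 these 30 genes had a median ratio of 4.24 to e398, and u218 was lower than u74 in 28 of them. Of 52 genes for germline proliferation and meiosis 7 were higher and 12 lower (median 0.18), with the Vasa-like helicase gene glh-1 at 72508 and 32485 and the poly(A) polymerase gene gld-4 at 751 and 4129.6. Of 30 cell cycle and DNA replication genes 10 were higher and 2 lower (median 0.75), cdk-2 at 50.9 and 830.4 being the highest ratio, although its span overlaps anr-45.

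Genes that direct sex were mixed, with 5 higher and 5 lower of 19 (median 0.10), against 26.9% and 40.7% of all genes considered. fog-3, which commits germ cells to sperm, averaged 184 in e398 and 1024 in u218. her-1, the signal that promotes male development, had 61.3, 87.1 and 44.2 normalized counts in e398 and 9.56, 10.6 and 21.7 in u218. Its u218 libraries all lay below its e398 libraries, and it fell by limma (log2 -2.16 ± 0.63 SE, adjusted p = 0.029), a call that was lost after recentring and without u218 library 1 or 2 or e398 library 1 or 2.

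Ribosomal protein genes were the group with the highest ratios. Of 80 cytosolic ribosomal protein genes 77 were higher in u218 and 3 lower, with a median ratio of 3.20. Together the ribosomal protein genes took 1.68% of the e398 column and 15.3% of the u218 column. The column totals were unlike, 1.27e+08 in e398 and 6.88e+07 in u218, so such shares differ from ratios of sums. The summed averages of these genes were 2.1305e+06 and 1.05e+07. The large-subunit gene rpl-3 averaged 108835 and 343789, the stalk protein gene rla-0 76503 and 352155, and rpl-29 292 and 32094, the highest ratio of the list at 6.77. The 3 lower genes were rpl-7A (453009.9 and 145901), rpl-12 (341431 and 114952) and rpl-42 (467 and 17.7). None of these genes could be tested, as their averages were beyond the recovered range in at least 1 column.

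The ratio of a ribosomal protein gene went with its length. Genes with up to 400 exonic nucleotides had a median of 5.56 (n = 14), and those over 800 a median of 2.39 (n = 13). Over the 80 genes, Spearman's rho of exonic length and ratio was -0.80, a description across genes of the same 2 columns. It was -0.51 over 69 mitochondrial ribosomal protein genes and -0.72 over 62 respiratory chain genes, but -0.01 over all 15962 protein-coding genes considered. For u74 against e398 the cytosolic value was -0.77, and for u218 against u74 it was -0.27. The lists were also recentred on the median of genes of like exonic length, an alternative chosen after seeing the data. The list medians were then 3.64 for cytosolic and 2.43 for mitochondrial ribosomal protein genes and 2.47 for respiratory chain genes. This recentring could only raise them, because the median ratio of all genes considered was negative in every length range. Whether length accounts for the ratios of these lists was therefore not tested.

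**Figure D3:**
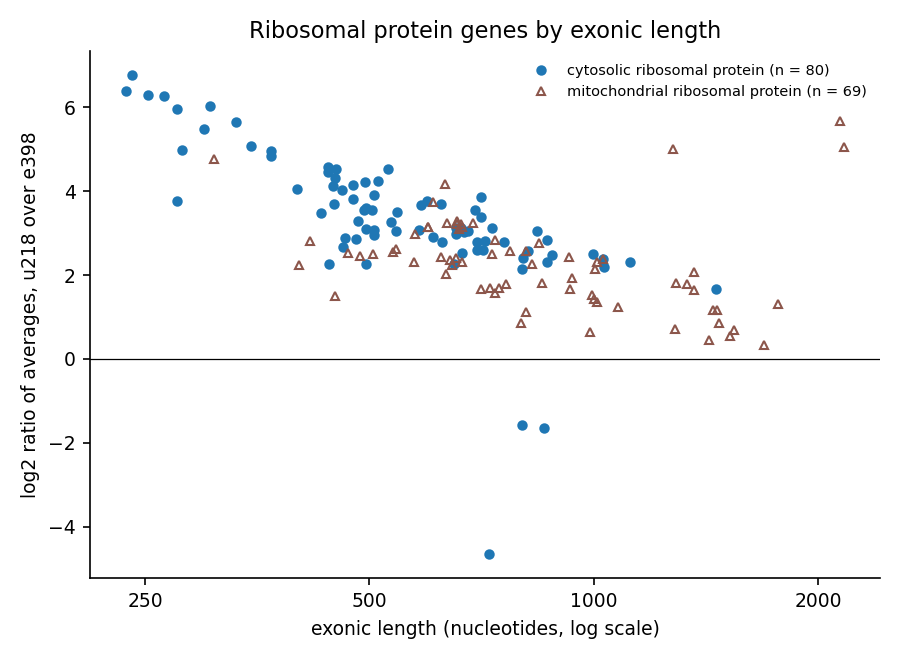
Log2 ratio of u218 to e398 averages (y axis) against exonic length in nucleotides (x axis, log scale) for 80 cytosolic (filled circles) and 69 mitochondrial (open triangles) ribosomal protein genes. Genes of up to 400 nucleotides have a median of 5.56 and those over 800 one of 2.39, and 3 cytosolic genes lie below 0.

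Other housekeeping lists were mostly higher too by count of genes, but not always by summed averages. The sums in e398 and u218 were 72644 and 2.3896e+05 for mitochondrial ribosomal protein genes and 1.8193e+05 and 3.9147e+05 for the proteasome. They were 1.2981e+06 and 1.4603e+06 for the respiratory chain, and 5.1334e+06 and 2.5584e+06 for translation factors. For mitochondrial ribosomal protein genes, 61 of 69 were higher and 0 lower (median 2.30), mrpl-45 at 67.2 in e398 and 3476 in u218 being the highest. Of 62 respiratory chain genes 53 were higher and 2 lower (median 2.31), with the complex I subunit gene ndua-1 at 146 and 4225, while the ATP synthase subunit gene atp-1 was lower (880896 and 219632). The proteasome list had a median of 1.26, 22 of its 33 genes being higher and 1 lower, among them the core subunit gene pbs-4 (1398 and 10901). The base subunit rpt-1 (15051 and 14785) and another base subunit, rpn-2, (19349 and 19502) were nearly equal. Translation factors split by member. Of 42, 24 were higher and 6 lower (median 1.31), with the initiation factor gene eif-3.I at 637 and 14845, but the poly(A)-binding protein gene pab-2 at 199283 and 10015 and the elongation factor gene eef-1G at 1326985 and 166974. The most abundant of them, eef-2, averaged 1732402 and 518451, and pab-1 848158 and 248358.

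The 41 splicing regulators had a median of 1.23, with 25 higher and 5 lower. sfa-1, the branch-point binding protein SF1, averaged 267 in e398 and 7376 in u218, and the SR protein gene rsp-3 5508 and 18386. The hnRNP A1-like gene hrpa-1 (84416 and 22133), smu-1 (14486 and 3510.5) and the STAR-family splicing regulator gene asd-2 (26041 and 6882) were lower. The large spliceosomal protein gene prp-8 was at 34099.9 and 26789. Against u74 0 of 41 were higher or lower at 2-fold, and the medians of u74 to e398 and of u218 to u74 were 1.12 and -0.03. In the same way u218 and u74 were close for mitochondrial ribosomal (median 0.39), proteasome (-0.04) and translation factor genes (0.28), and for cytosolic ribosomal protein genes the median was 0.61 (3 higher, 1 lower).

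**Figure D4:**
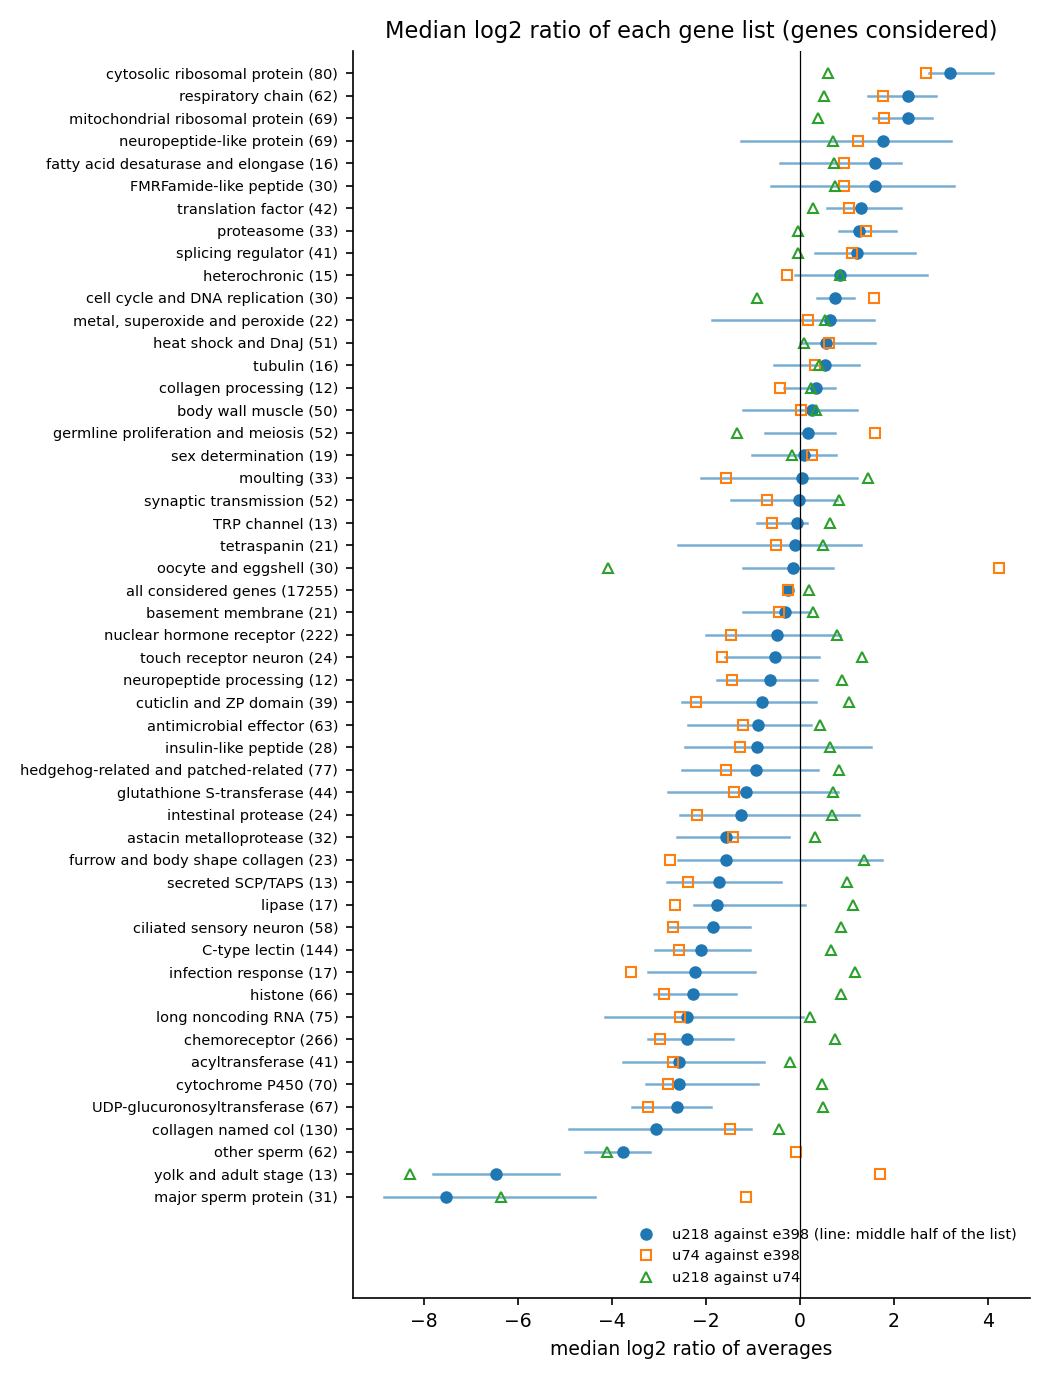
Median log2 ratio of averages (x axis) for each gene list with at least 12 genes considered and for all genes considered, with the number of genes in brackets. Blue circles show u218 against e398 with a line from the lower to the upper quartile of the list, orange squares u74 against e398 and green triangles u218 against u74. The ratios share columns and are not independent. The sperm and yolk lists have low blue and green values, whereas for ribosomal, detoxification and chemoreceptor lists the blue and orange values lie close together.

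Collagen genes were mostly lower, and other cuticle lists were mixed. The cuticle is built of collagens made in waves before each moult, and different members mark different stages. Among the 130 col genes considered, the median ratio was -3.05, with 98 lower and 13 higher, and these genes took 12.9% of the e398 column and 3.10% of the u218 column. Their summed averages were 1.6353e+07 in e398 and 2.1348e+06 in u218, as the column totals were unlike. col-120 averaged 446396 in e398. Its u218 libraries held 95.6, 94.8 and 247 normalized counts, and its averages in u74 and wild type were 24016 and 13111. col-38 averaged 2158852 and 10683. col-99, which encodes a transmembrane collagen and overlaps daf-1, was the highest, at 28.7 and 2987. The 31 col genes that could be tested are weakly expressed, and 3 fell and 0 rose by limma, fewer than the 32.0% and 10.2% of all genes tested. Without the libraries that stand apart 12 fell and 1 rose. Against u74 the col list had a median of -0.43, with 57 lower and 30 higher, beside 18.5% and 19.4% of all genes considered.

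Genes of the furrow and body shape collagens split by member. Of 23, 13 were lower and 7 higher (median -1.56), against 40.7% and 26.9% of all genes considered. rol-1, a collagen gene whose mutants roll, averaged 970075 in e398 and 1708 in u218, and sqt-3, a collagen present in all larval cuticles, 1170043 and 172699.6. dpy-3, a furrow collagen, averaged 1891 and 15755, with 2450.3 in u74 and 3213 in wild type. The zona pellucida-domain genes of the apical matrix noah-1 and noah-2 averaged 44415 and 6422 in e398 and 55839 and 46359 in u218. The 39 cuticlin and zona pellucida-domain genes had a median of -0.80 (7 higher, 18 lower), and the 12 collagen processing genes one of 0.35 (3 higher, 2 lower). The share of higher genes in the cuticlin list was below the 26.9% of all genes considered. The share of lower genes was somewhat above the 40.7% of all genes in the cuticlin list and below it in the processing list. Moulting genes had 9 higher and 14 lower of 33 (median 0.06), near the 26.9% and 40.7% of all genes considered. grh-1, the grainyhead transcription factor of the epidermis, averaged 174 and 5489, and mlt-10 87815 and 28222. Against u74 23 of the 33 moulting genes were higher in u218 and 0 lower (median 1.45), beside 19.4% and 18.5% of all genes considered.

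The 15 heterochronic genes, which set the timing of larval stages, had a median of 0.87, and 7 were higher and 0 lower. The period-like gene lin-42 averaged 8781 in e398 and 27335 in u218, against 10997 in wild type and 10001 in u74. The long noncoding RNA lep-5 averaged 4063 and 25914, and lin-29, which drives the larval-to-adult switch, 5744 and 3144 (-0.87).

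Among detoxification genes, averages were mostly lower for cytochrome P450 and UDP-glucuronosyltransferase genes and mixed for glutathione S-transferases. Cytochrome P450 genes, which oxidise foreign compounds and lipids, were lower in 51 of 70 cases and higher in 3 (median -2.57), with cyp-35C1 at 35195 in e398 and 2237 in u218. The UDP-glucuronosyltransferases, which conjugate such compounds, had a median of -2.62 over 67 genes, 58 lower and 2 higher, with ugt-26 at 60246 and 5824. Glutathione S-transferases were lower in 23 of 44 cases and higher in 11 (median -1.14), the range reaching from gst-20 (82699.8 and 2464) to gsto-3 (139.1 and 1033). By limma 9 of 24 P450 genes fell and 1 rose, 6 of 10 UDP-glucuronosyltransferases fell and 0 rose, and 5 of 21 glutathione S-transferases fell and 4 rose. Over all genes tested 32.0% fell and 10.2% rose, so the share that fell was near the background for P450 genes, and for glutathione S-transferases it was below the background while the share that rose was above it. ugt-35 had 140.2, 111.7 and 23.1 normalized counts in e398 and 0.503, 0 and 1.204 in u218. All its u218 libraries were below all e398 libraries, and it fell by limma (adjusted p = 0.00544), though its span overlaps aqp-6. With 2 reads in all of u218, it was 211-fold lower, with a 95% counting interval from 58.5 to 1746. Against u74, 18 P450 genes were higher and 6 lower (median 0.48), and for UDP-glucuronosyltransferases 20 were higher and 5 lower (0.50). Over all genes considered 19.4% were higher and 18.5% lower than in u74 (median 0.19).

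C-type lectin and infection response genes had mostly lower averages, and other intestinal and defence lists were mixed. C-type lectin genes, many of them induced by pathogens, were lower in 109 of 144 cases and higher in 13 (median -2.11), with clec-50 at 268060.5 and 19435 and clec-63 at 40673 and 103488. By limma 17 of 73 fell and 1 rose, a smaller share of falls than the 32.0% of all genes tested, and 28 fell and 6 rose without the libraries that stand apart. Infection response genes had a median of -2.23 over 17 genes, 12 lower and 2 higher, among them irg-8 (504052 and 43634). Antimicrobial effector genes were lower in 31 and higher in 12 of 63 (median -0.88), against 40.7% and 26.9% of all genes considered. Intestinal proteases were lower in 13 and higher in 8 of 24 (median -1.25), a share of higher genes above the 26.9% of all genes considered. The aspartyl protease gene asp-17 averaged 18.2 in e398 and 155 in u218. Its groups overlapped, as u218 library 3 held 22.9 normalized counts and e398 library 2 held 26.3. It did not pass limma (adjusted p = 0.0669), but rose by limma without the libraries that stand apart (adjusted p = 0.00521). The lysosomal lipase gene lipl-5 averaged 443888 and 7837, and the cathepsin B-like gene cpr-5 745186 and 57162. Fatty acid synthesis was an exception, with 11 of 16 desaturase and elongase genes higher and 4 lower (median 1.61). fat-5, a palmitoyl desaturase gene, averaged 41.8 in e398 and 4664 in u218, and fat-2, a delta-12 desaturase gene, 15889 and 70561, while elo-5, needed for branched-chain fatty acids, averaged 153668 and 14070.1. The metallothionein genes mtl-1 (113 and 1668) and mtl-2 (13490.5 and 50255), which bind metals, were higher, with u74 averages of 133 and 8752. numr-1, a metal-responsive nuclear gene, had 52.6, 88.7 and 119.9 normalized counts in e398 and 0.503, 2.79 and 3.61 in u218. The groups did not overlap, and it fell by limma (log2 -4.81 ± 0.72 SE, adjusted p = 0.00519).

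Neuronal genes went in both directions according to class. Ciliated sensory neuron genes, which build the endings that sense chemicals, were lower in 44 of 58 cases and higher in 7 (median -1.85). osm-5, an intraflagellar transport gene, averaged 8653 in e398 and 416 in u218, and dyf-7, which anchors dendrite tips, 3333 and 53.8. dyf-17 had 39.4, 11.5 and 29.4 normalized counts in e398 and 155, 166 and 165 in u218, every u218 library above every e398 library. It rose by limma (log2 2.71 ± 0.58 SE, adjusted p = 0.011), but not without u218 library 2. Of the 18 ciliary genes tested, 3 rose and 8 fell by limma, against 10.2% and 32.0% of all genes tested. Against u74, 24 of the 58 were higher in u218 and 2 lower (median 0.88), beside 19.4% and 18.5% of all genes considered (median 0.19).

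Genes of the touch receptor neurons, the cells that sense gentle touch, were lower in 8 and higher in 5 of 24 cases (median -0.51, or 0.05 with the TMM factor). Both shares were below those of all genes considered (40.7% lower and 26.9% higher). The tubulin genes mec-7 and mec-12 averaged 14503 and 47663 in e398 and 4603 and 7938 in u218. The tau-like gene ptl-1 averaged 435 and 1955. In u74 mec-7 and mec-12 averaged 1581 and 3155, and 18 of the 24 genes were higher in u218 than in u74, with 1 lower (median 1.32). The shares over all genes considered were 19.4% higher and 18.5% lower there. Synaptic transmission genes had a median of -0.02 (0.22 after recentring and 0.55 with the TMM factor) with 8 higher and 17 lower of 52, from the acetylcholinesterase gene ace-2 (73.98 and 3611) to acr-2, an acetylcholine receptor subunit gene of motor neurons (3793 and 224). For this list too, both shares were below the 26.9% higher and 40.7% lower of all genes considered.

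Neuropeptide precursor genes were mostly higher in u218 by count, although the summed averages of both lists were lower. Genes of their processing were mostly lower or within 2-fold. The 30 FMRFamide-like peptide genes had a median of 1.60 (16 higher, 4 lower) and the 69 neuropeptide-like protein genes one of 1.78 (39 higher, 19 lower). The sums were 40579 in e398 and 37600 in u218 for the first list and 96437 and 75108 for the second. flp-24, the highest ratio of the first list, averaged 75.6 in e398 and 1660.0 in u218. The 4 most abundant genes of that list had lower averages in u218. They were flp-9 (9858 and 3192), flp-8 (5957 and 1230), flp-5 (5104 and 1670) and flp-14 (3820 and 2173, within 2-fold). nlp-40, an intestinal peptide of the defecation rhythm, averaged 2648 and 13029. nlp-27 (21889.7 and 905) and nlp-33 (18428 and 7163), antimicrobial peptide genes of the epidermis, were lower. By limma 9 of 24 neuropeptide-like genes rose and 5 fell, against 10.2% and 32.0% of all genes tested. Of 12 processing genes 2 were higher and 6 lower (a median of -0.62), with egl-21, a carboxypeptidase that trims peptide precursors (51859 and 16354).

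Chemoreceptor genes, a family of many seven-transmembrane receptors expressed in sensory neurons, were lower in 212 of 266 cases and higher in 17 (median -2.40). The list is matched by name prefix and also holds the serpin genes srp-6 and srp-7. By limma 172 of 498 fell and 12 rose, against 32.0% and 10.2% of all genes tested. str-130 had 194, 153 and 101 normalized counts in e398 and 5.03, 0 and 0 in u218. Its groups were far apart, and it fell by limma (log2 -6.32 ± 0.87 SE, adjusted p = 0.00495). srh-71 went the other way, with 2.92, 1.64 and 0 in e398 and 79.0, 96.98 and 56.6 in u218, and it rose by limma (adjusted p = 0.00499). With 3 reads in all of e398 it was 45.7-fold higher, with a 95% counting interval from 15.6 to 222. In the 172 chemoreceptor genes with wild-type reads, the median log2 difference was -1.39 between u218 and e398 and -1.28 between the large and the small wild-type libraries. Against u74, 111 of the 266 were higher in u218 and 33 lower (median 0.75), beside 19.4% and 18.5% of all genes considered.

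Histone genes and short noncoding RNAs had mostly lower averages, as did short genes in general. Of 688 genes of up to 300 exonic nucleotides 77.6% were lower (median -3.50), and of the 206 protein-coding ones among them 60.2% (median -1.90). Among 66 histone genes the median ratio was -2.26, with 52 lower and 5 higher. Of the 32 that could be tested 15 fell and 0 rose by limma, against 32.0% and 10.2% of all genes tested. Recentred on genes of like exonic length, the histone median was -1.45. his-45, an H3 gene, had 437, 119.9 and 362 normalized counts in e398 and 2.52, 6.69 and 16.9 in u218. All u218 libraries lay below all e398 libraries, and it fell by limma (log2 -5.09 ± 0.81 SE, adjusted p = 0.00567). his-35, an H2A gene, had the highest ratio, at 1401 and 11524. Replication-dependent histone mRNAs usually lack a poly(A) tail, and core histone genes have near-identical copies that share reads. Against u74, 32 of the 66 were higher in u218 and 6 lower, beside 19.4% and 18.5% of all genes considered.

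Of 134 piRNA genes considered, 130 were lower in u218 and 1 higher (median -4.53), and of 307 genes annotated as ncRNA 253 were lower and 29 higher (-3.75). By limma 201 of 282 piRNA genes fell and 1 rose, and 401 of 633 ncRNA genes fell and 24 rose. Over all genes tested 32.0% fell and 10.2% rose. piRNAs are short germline RNAs without a poly(A) tail, and 174 of the 282 genes overlap a larger gene, whose reads cannot be separated. The piRNA gene 21ur-6898 on chromosome IV had 138.7, 158 and 130.4 normalized counts in e398 and 1.01, 0 and 0 in u218. With 2 reads in all of u218 it was 328-fold lower, with a 95% counting interval from 90.8 to 2709, and it fell by limma (adjusted p = 0.00486). Over the 120 piRNA genes with wild-type reads, the median log2 difference was -3.08 between u218 and e398 and -2.60 between the large and the small wild-type libraries, and 79 fell by limma. Ribosomal RNA genes took 2.22% of the e398 column and 0.536% of the u218 column, also in a polyA preparation. These are shares of unlike totals, 1.27e+08 and 6.88e+07.

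Muscle and attachment lists had medians between -0.48 and 0.27. Of 50 body wall muscle genes 15 were higher and 16 lower (median 0.27), against 26.9% and 40.7% of all genes considered. They ranged from the troponin C gene pat-10 (1857066 and 102595) to the cofilin gene unc-60 (1591 and 11299). The myosin heavy chain gene unc-54 averaged 924330.1 and 440968 and the paramyosin gene unc-15 1087272 and 168278. Of 11 hemidesmosome genes, which tie the hypodermis to muscle and cuticle, 0 were higher and 2 lower (median -0.48), the 2 being let-805 (82394 and 34635) and mua-3 (106076 and 46279). The 21 basement membrane genes had 4 higher and 6 lower (median -0.30), with the laminin beta gene lam-1 at 1718 and 23039. With the TMM factor the hemidesmosome and basement membrane medians were 0.08 and 0.26.

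Among genes at 50 or more in either average, the highest ratio was that of rncs-1, a noncoding double-stranded RNA on the X chromosome known to be induced by starvation and to inhibit Dicer. It averaged 3.53 in e398, with 7.30, 3.29 and 0 in its libraries, and 3342 in u218, with 623 in wild type and 2345 in u74. H20J04.6, C35E7.6 and ubc-8, a ubiquitin-conjugating enzyme gene, followed the same order of columns, with 5.66, 7.86 and 5.48 in e398 and 1345, 1982 and 793 in u218. The u74 averages were 1217, 1048 and 692.

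At the other end stood a run of neighbours near the left end of chromosome V and several sperm, collagen and protease genes. K06H6.1 averaged 15207 in e398, and its u218 libraries held 0, 0 and 1.204 normalized counts, a single read. It was 70138-fold lower, with a 95% counting interval from 12588 to 2770306. K06H6.2 beside it averaged 4430.2, with 2 reads in u218. C14C6.6 and C14C6.8, at 545832 to 548080 and 551279 to 553167 of chromosome V in WBcel235, averaged 1861 and 1734 in e398 and held 0 reads and 1 read in u218. C14C6.6 was at least 2861-fold lower, counted against a floor of 3 reads over the group. nstp-7, also in this stretch, had 691, 13.1 and 410.0 normalized counts in e398 and 0 in every u218 library. It was at least 571-fold lower against the same floor and fell by limma (adjusted p = 0.00774). These genes were also low in u74, at 50.3, 83.1, 25.7, 11.5 and 1.68 in the same order. nas-22, an astacin protease gene, averaged 4980.1 in e398 and 1.95 in u218, and 639.7 in u74.

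Of the genes with the largest rises by limma, B0284.3 was at 0 in every e398 library and at 142, 132 and 56.6 in u218, at least 64.9-fold higher against a floor of 3 reads over the group (limma adjusted p = 0.00486). C40H5.2 had 4.38, 1.64 and 2.103 normalized counts in e398 and 314, 274 and 278 in u218, and it rose by limma (log2 6.35 ± 0.58 SE, adjusted p = 0.00486). Both genes were picked from those without overlap of groups, so their separation follows from the choice. Their averages were 70.7 and 141 in u74 and 50.2 and 87.5 in wild type. tba-5, an alpha tubulin of ciliated neurons whose span overlaps rsd-6, had 16.1, 19.7 and 6.31 in e398 and 266, 295 and 287 in u218. It rose by limma (log2 4.37 ± 0.56 SE, adjusted p = 0.00495), with an average of 146 in u74. The tetraspanin gene tsp-6 rose from 5.84, 9.86 and 4.21 to 166, 131 and 39.7 (limma adjusted p = 0.00901), u218 library 3 being the lowest of its group.

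Y43F8B.7 is among the few of these genes with recovered wild-type reads. It had 0 in every e398 library, 45.3, 40.7 and 32.5 in u218, 0.549, 5.72 and 20.2 in the large wild-type libraries and 1.88, 0 and 2.12 in the small ones. It was at least 23.3-fold higher in u218 than in e398 against the floor and rose by limma (adjusted p = 0.00486), but not with size factor as a term (limma adjusted p = 0.24 with large or small, 0.071 with its log2 value). Its average in u74 was 4.74.

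Among the largest falls were the lincRNA gene linc-156, with 294, 67.4 and 214 in e398 and 0.503, 0 and 0 in u218, and anr-54, an antisense RNA gene over vhp-1, with 119.8, 424 and 118 against 0 in every u218 library. Both fell by limma (adjusted p = 0.00486 for each), and u74 averaged 0.839 and 3.96. Y46B2A.4 had 507, 41.1 and 633 in e398 and 0.503, 0 and 0 in u218 and fell by limma (adjusted p = 0.00495), whereas its u74 average was 213. Of 103 lincRNA genes tested 14 rose and 43 fell by limma, against 10.2% and 32.0% of all genes tested. The spig gene spig-3 fell by limma from 346, 297 and 399.5 to 8.05, 8.92 and 38.5 (log2 -4.504 ± 0.66 SE, adjusted p = 0.00515), u218 library 3 being highest of its group.

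**Figure D5:**
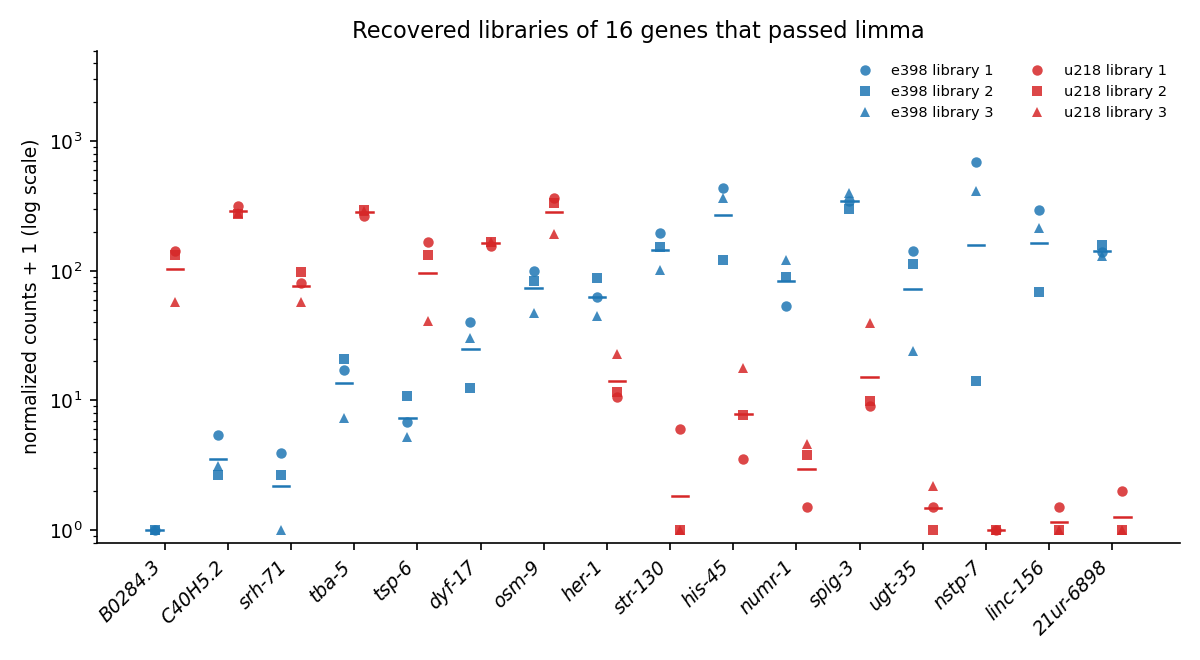
Normalized counts plus 1 (y axis, log scale) in each recovered library of e398 (blue) and u218 (red) for 16 genes that passed limma, chosen from the named genes to cover several lists. Symbols mark libraries 1 to 3 and bars the mean of the log values. The groups do not overlap for any of these 16 genes. Some of the named genes were picked for lack of overlap, so this separation follows in part from the choice. Over all 6902 genes tested, all u218 libraries lay above all e398 libraries in 15.6% and below in 38.4%.

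Chromosomes differed in the balance of directions. On chromosome V 848 of 3703 genes considered were higher and 1798 lower (median -0.88), and on chromosome IV 737 of 3032 were higher and 1425 lower (-0.67). On chromosome III 846 of 2536 were higher and 787 lower (0.28). The chemoreceptor genes on V and the piRNA genes on IV are part of these counts, and how far the gene lists above account for them was not tested.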

How the data were processed

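PolyA RNA of whole L4 animals was prepared with a NEBNext kit, per the labels' protocols. The deposited values are signal, named averaged normalized counts per genotype. That counts were divided by size factors was read from the steps of the values. The submitters' processing notes name bedtools, HTSeq, DESeq and DESeq2. Strandedness, aligner, annotation and genome build were not given in the sources used here, so reads of overlapping, antisense or near-identical genes cannot be separated. Names, positions and exonic lengths come from the WBcel235 annotation, release 115, in which all 46926 identifiers matched. Of the symbols, 628 stand on more than 1 identifier.

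Averages were turned back into whole reads per library where exactly 1 combination of reads gave the printed value. This held for 100% of 16495 nonzero e398 averages below 400, 14353 u218 averages below 300 and 9926 wild-type averages below 8. After values were moved off their steps, 0.0667%, 1.67% and 0.05% still had a solution. The recovered libraries are numbered by size factor and cannot be tied to labelled samples. Reads recovered per library were tested with limma 3.58.1 (R 4.3.3, Python 3.11.15) on log2(recovered normalized count + 1), with trend and Benjamini-Hochberg adjustment over the 6902 genes with a mean of at least 5. Abundant genes have averages only, with no error. Each group had 3 libraries, between 272567 and 709822 recovered reads each, and nothing says they were separate cultures, so p-values may measure technical spread only. Counting intervals are exact at 95% and cover counting error only. The script was checked on simulated data.

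The comparison, its members and the 55 gene lists were chosen with earlier results of these data known. Named genes were mec-8 and 4 splicing targets, the 15 highest and 15 lowest ratios at 50 or more in either average, the 15 largest rises and 15 largest falls by limma without overlap of groups, and for each list the 4 most abundant members and both ends of its range.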

Additional observations from a re-analysis of the deposited data

How the results depend on the processing

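Averages above the recovered range have no left-out library. Leaving out each library in turn gave between 237 and 816 genes that rose and between 1075 and 2326 that fell by limma, against 705 and 2208. The fewest rises came without u218 library 2 (237) and library 1 (270), with 406 and 451 without e398 libraries 1 and 3. The falls there numbered 1075, 1200, 1203 and 1323. Recentring the libraries gave 1334 rises and 1062 falls, a mean of at least 20 gave 1435 falls, and leaving out both libraries that stand apart, an alternative chosen after seeing the data, gave 1261 rises. Without the minimum of 20, 11572 averages were at least 2-fold lower. The fits with wild-type libraries were also chosen after seeing the data. Of the 1131 genes there, 54 rose and 142 fell without u218 library 3 and with no term. With large or small size factor as a term 0 rose and 0 fell, and with log2 size factor 1 rose and 4 fell. Voom, no trend and other pseudocounts kept each count within 1.5 times. The causes were not tested. Without both libraries that stand apart 0 of the 2913 called genes changed sign. With large or small size factor as a term, 76 of the 80 genes that rose stayed positive and 275 of the 324 that fell stayed negative, and with log2 size factor 80 and 322 did. Recentring within exonic length bins, also added later, moved 1 of 55 list medians by more than the SD over its genes, that of nonsense-mediated decay, to 0.66. The osm-9 call was lost without u218 library 1 or 2. No paired analysis was possible because the averaged columns carry no replicate numbers. Depth limits genes with few reads, and 1 read was worth 2.103 normalized counts in the smallest of the 6 libraries.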
